A study of Mus musculus with 8 samples.

Results

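The genes described here encode the subunits of oxidative phosphorylation, the 5 protein complexes of the inner mitochondrial membrane. They were taken by name: every probe set whose single annotated symbol begins with Ndufa, Ndufb, Ndufc, Ndufs, Ndufv, Sdha, Sdhb, Sdhc, Sdhd, Uqcr, Cox4i, Cox5, Cox6, Cox7 or Atp5, without Cox7a1 and without assembly factors (symbols containing "af"). This gave 144 of the 22690 probe sets on the array, for 75 genes. Complex I had 68 probe sets for 34 genes, complex II 7 for 4 genes, complex III 15 for 8 genes, complex IV 26 for 12 genes and complex V 28 for 17 genes. The rule itself uses no measured value, but it was chosen with earlier results of these data known. All 144 were analysed, since no filter on low values was possible.

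Complex I takes electrons from NADH and complex II takes them from succinate. Complex III passes them to cytochrome c, complex IV passes them on to oxygen, and complex V, the ATP synthase, uses the resulting proton gradient to make ATP. The subunits listed here are encoded in the nucleus, and their genes are known to share regulators such as NRF-1, GABP of the ETS family, YY1 and the estrogen-related receptors. The tumor suppressor pRb restrains E2F-driven entry into the cell cycle, and p53 is known to promote respiration through targets such as Sco2, an assembly factor of complex IV.

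RNA came from whole skin of newborn FVB mice, an inbred strain, and was measured on 8 oligonucleotide microarrays. There were 4 genotypes with 2 arrays each: control, pRb_null (pRb-/-;p53+/+), p53_null (pRb+/+;p53-/-) and double_null (pRb-/-;p53-/-), where the losses are somatic and made in stratified epithelia. Each array held RNA pooled from 3 newborn animals of 1 genotype. The promoter that drives the deletion and the alleles that the control animals carry are not given in the sources used here, nor is it given whether both arrays of a genotype hold different pools. The p-values therefore rest on the spread of these particular arrays alone, and that spread may be technical. Skin holds many cells that are not stratified epithelium, and in whole tissue fewer cells of a type and less RNA per cell cannot be told apart.

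The deposited values are standardized scores: each probe set has mean 0 and SD 1 over the 8 arrays. A score says where an array stands among the 8 for that probe set, in SD units, and holds no expression level and no fold change. The standardization also limits how large a difference can be. For average p53 loss the SE of the subunit differences ran from 0.19 for Ndufa2 to 0.93 for Cox4i2, and having 2 arrays per genotype limits the precision of each. The label "skin" could not be checked against the level of its markers. Rb1, the gene deleted in pRb_null and double_null skin, scored 1.2 and 0.8 (control), −0.71 and 0.44 (pRb_null), 0.5 and 0.22 (p53_null) and −0.55 and −1.9 (double_null). One pRb_null array, at 0.44, lay between both p53_null arrays, and whether the probe set lies in the deleted part was not tested. Over all probe sets the array medians lay between −0.16 and 0.23.

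As a group the subunit genes scored lower in skin without p53, and most of the lower probe sets belonged to complex I. The median over the 144 probe sets was 0.11 and 0.47 (control), 0.46 and 0.06 (pRb_null), −0.47 and −0.24 (p53_null) and −0.12 and −0.23 (double_null). All 4 arrays with p53 thus lay above all 4 arrays without it. The closest were the second pRb_null array (0.06) and the first double_null array (−0.12). Over all probe sets these arrays stood at 0.02 and −0.16, about as far apart. The split over all subunits was therefore not clear of the offset between whole arrays. For complex I the medians were 0.23 and 0.69 (control), 0.46 and 0.18 (pRb_null), −0.6 and −0.32 (p53_null) and −0.32 and −0.4 (double_null), again without overlap. Complex V was ordered the same way, from 0.06 to 0.35 with p53 and from −1.0 to −0.12 without it. Its closest arrays, the second control and the first double_null array, stood at 0.07 and −0.16 over all probe sets. That offset was wider than the gap in complex V, whose array median had an SD of 0.32 within genotypes. Complexes II, III and IV overlapped between these sets of arrays. No single subunit probe set passed limma's test at an adjusted p under 0.05 in any of the 9 comparisons fitted, and no probe set of the whole array did with limma's moderated test. What follows is therefore a description of scores, differences and counts.

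**Figure D1:**
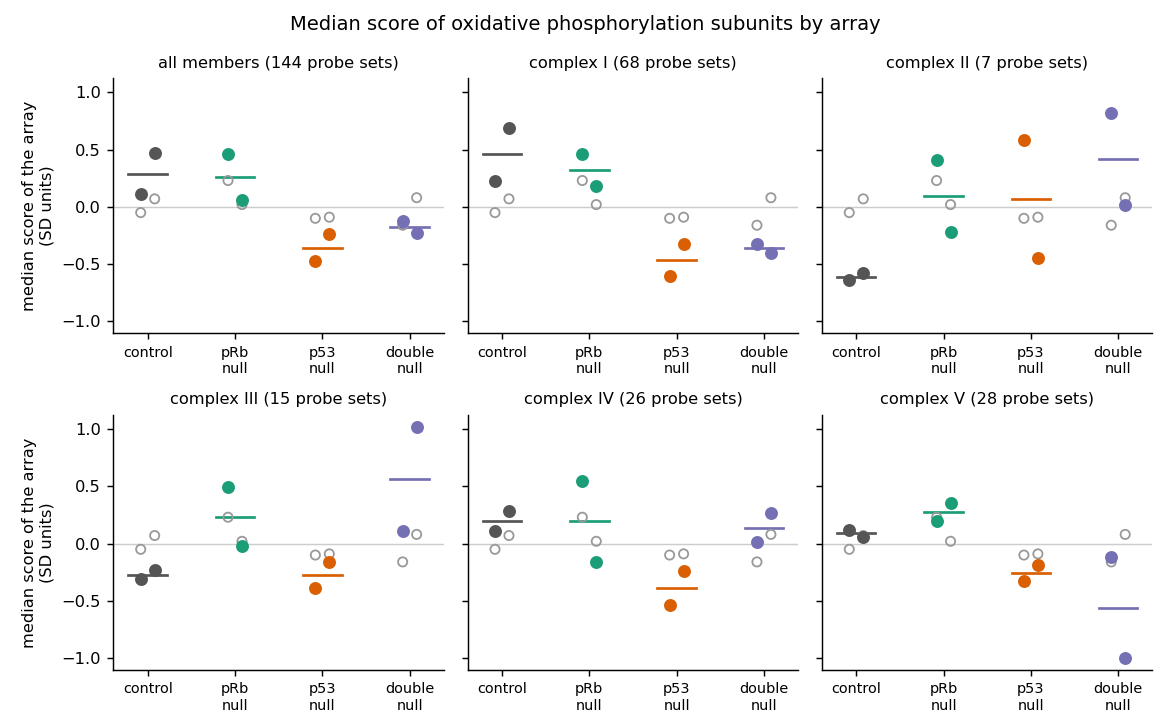
Median score (SD units) of each array over all 144 subunit probe sets and over those of each complex, with filled points for arrays, short lines for the mean of both arrays of a genotype and open points for the median of all 22690 probe sets on the same array. In complex I the 4 arrays with p53 lie between 0.18 and 0.69 and the 4 without it between −0.6 and −0.32; complex II is lowest in the control arrays, at −0.64 and −0.58.

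The comparison of pRb_null with control skin asks what loss of pRb does where p53 is present. The median difference of the subunits was −0.09 SD units, beside 0.07 over all probe sets. At an unadjusted p under 0.05, 3 subunit probe sets were lower and 2 were higher, where 4.21% of all probe sets were lower and 6.44% higher, and 0% of all probe sets were called after adjustment. The smallest adjusted p was 0.37 (limma), for Uqcrb, a small subunit of complex III, whose probe set 1455997_a_at was higher by 1.2 ± 0.33 (SE). Ndufa7, an accessory subunit of complex I, was lower in its probe set 1455749_x_at by −1.94 ± 0.63. The group of 7 probe sets for complex II had a median difference of 0.91, the largest of the 5 complexes. In complex V the smallest unadjusted p values, both above 0.05, belonged to Atp5j2 (1435395_s_at, 1.94 ± 0.73) and Atp5a1 (1420037_at, −1.65 ± 0.68). The counts rested on single arrays: without the second pRb_null array 13 were lower and 7 higher, without the first 0 and 1, without the second control array 1 was lower, and without the first control array 0 were higher.

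The comparison of p53_null with control skin asks the same for p53 where pRb is present. Here 22 subunit probe sets were lower and 5 higher at an unadjusted p under 0.05, where 7.23% and 7.38% of all probe sets were lower and higher, and 0.119% of all probe sets were called after adjustment. The 27 calls over the array became 0 to 5 whichever array was left out. The median difference was −0.6, beside −0.15 over all probe sets. Complex I held 13 of the 22, with a median of −1.04. Ndufa3, an accessory subunit of complex I, had the smallest adjusted p, 0.16 (limma), with a difference of −1.77 ± 0.32 for 1452790_x_at. The largest differences were those of Ndufv2 (1438159_x_at, −2.38 ± 0.55), an iron-sulfur subunit of the NADH-oxidizing arm, and Ndufb10 (1428322_a_at, −2.29 ± 0.52), an accessory subunit of the membrane arm, both picked after their values were seen. The number of lower probe sets was 6 without the second control array, 9 without the first p53_null array and 12 without the second, and 3 were higher without either p53_null array. The median was −0.95 without the first control array, and a fit of only these genotypes gave 10 lower.

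In double_null against control skin, 23 subunit probe sets were lower and 13 higher at an unadjusted p under 0.05, where 9.91% of all probe sets were lower and 8.77% higher, and 0.846% were called after adjustment (192, and 1 to 8 whichever array was left out). The median difference was −0.63, beside −0.01 over all probe sets. The complexes went apart: the median was −1.03 in complex I (15 lower, 2 higher) and −1.16 in complex V (4 lower, 0 higher), but 1.05 in complex II (0 lower, 3 higher) and 1.22 in complex III (3 lower, 5 higher). Complex IV lay between, at −0.43. Uqcrb 1455997_a_at had the smallest adjusted p, 0.077 (limma), with a difference of 2.5 ± 0.33. The medians of complexes II and III moved with single arrays: complex II gave 0.33 without the first double_null array and 1.77 without the second, and complex III gave 1.64 and 0.49. That of complex III was 0.63 without the first control array. Complex V gave −0.54 without the second double_null array, −0.64 without the first control array and −0.59 without the second, and complex I gave −0.65 without the second control array. Without the second control array 10 were lower and the median over all subunits was −0.39, without the second double_null array 12 were lower, and without the first control array 8 were higher. Taken with 1 probe set per gene, the median over all subunits turned to 0.08.

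Double_null skin against each single loss shares its arrays with the comparisons above. Against pRb_null skin, 23 subunit probe sets were lower and 14 higher at an unadjusted p under 0.05, where 10.9% and 7.71% of all probe sets were, and 0.405% were called (92, and 0 to 6 whichever array was left out). Without the first pRb_null array 15 were lower and 8 higher, and without the second double_null array 10 and 8. Against p53_null skin, 0 were lower and 7 higher, where 5.91% and 5.99% of all probe sets were, and 0.0353% were called. Those 7 were 2 probe sets of Uqcr10 and 1 each of Uqcrc1, Ndufa4, Ndufs8, Cox6a1 and Cox6b1. Their number was 4 without either control array and 12 without the first double_null array, and the number lower was 4 without the first double_null array and 2 without either control array or the first p53_null array. In p53_null against pRb_null skin, 20 were lower and 5 higher, where 9.41% and 6.81% of all probe sets were, and 0.0573% were called. Without the first array of pRb_null or of p53_null 10 were lower, and the number higher ran from 2 to 8, with 2 without the first pRb_null or second p53_null array, 3 without either control array and 8 without the second pRb_null array.

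Whether the effect of p53 loss depended on pRb was asked with the interaction, which is the p53 effect in skin without pRb minus that in skin with pRb. Among the subunits 0 were lower and 5 higher at an unadjusted p under 0.05, where 6.01% and 4.46% of all probe sets were, and 0% of all probe sets were called after adjustment. Those 5 were Cox6a1 1417417_a_at (2.59 ± 0.37, limma, adjusted p = 0.26), Ndufa7 1455749_x_at (3.23 ± 0.88), Cox7c 1459884_at (3.21 ± 0.92), Uqcrc1 (2.23 ± 0.54) and Uqcr10 1434340_at (1.78 ± 0.56). The median interaction was 0.23, beside −0.04 over all probe sets, and 0.44 without the second p53_null array. The count of 5 was 2 without the second control array, 3 without the first array of control, pRb_null or p53_null or the second of double_null, 8 without the second p53_null array and 9 without the first double_null array. Up to 4 were lower, with 4 without the second pRb_null array, 3 without the first double_null array, 2 without the second control array and 1 without the first control, first pRb_null or second p53_null array.

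Because both pairs of genotypes without p53 lay lower, an average effect of p53 loss was fitted after the values were seen, as the mean of p53_null and double_null minus the mean of control and pRb_null. In this contrast 30 subunit probe sets were lower and 10 higher at an unadjusted p under 0.05, where 12.4% and 9.71% of all probe sets were, and 1.26% of all probe sets were called after adjustment. In number, those 285 calls became 3 to 9 whichever array was left out, 17 with quantile normalization, and 0 with the moderated test or the replicate block. The members' shares were 20.8% and 6.94%. The median difference was −0.61, beside −0.13 over all probe sets. Complex I accounted for 21 of the 30, which is 30.9% of its probe sets, with a median of −0.9 and 3 higher. Its 16 probe sets for core subunits, from only 6 genes, had a median of −1.35, with 7 lower and 0 higher. Its 52 for accessory subunits, from 28 genes, had −0.7, with 14 lower and 3 higher. Probe sets of the same gene are not independent, and the core genes Ndufs1 (0.27 ± 0.91) and Ndufs3 (0.9 ± 0.54) were above 0. With 1 probe set per gene 15 subunit genes were lower and 7 higher, where 12.2% and 9.23% of all genes were, and the median over all subunits was −0.36 and that of complex I −0.54. The number lower in complex I was 13 without the second control array and 12 without the first p53_null array. The matching average effect of pRb loss gave 2 lower and 7 higher, where 5.94% and 6.92% of all probe sets were, with 0.00441% called. That count of 2 ranged from 0, without the second p53_null array, to 8, without the second pRb_null array; it was 4 without the first control or first p53_null array and 1 without the first pRb_null or second double_null array. The count of 7 was 2 without the first control array and 3 without the second.

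**Figure D2:**
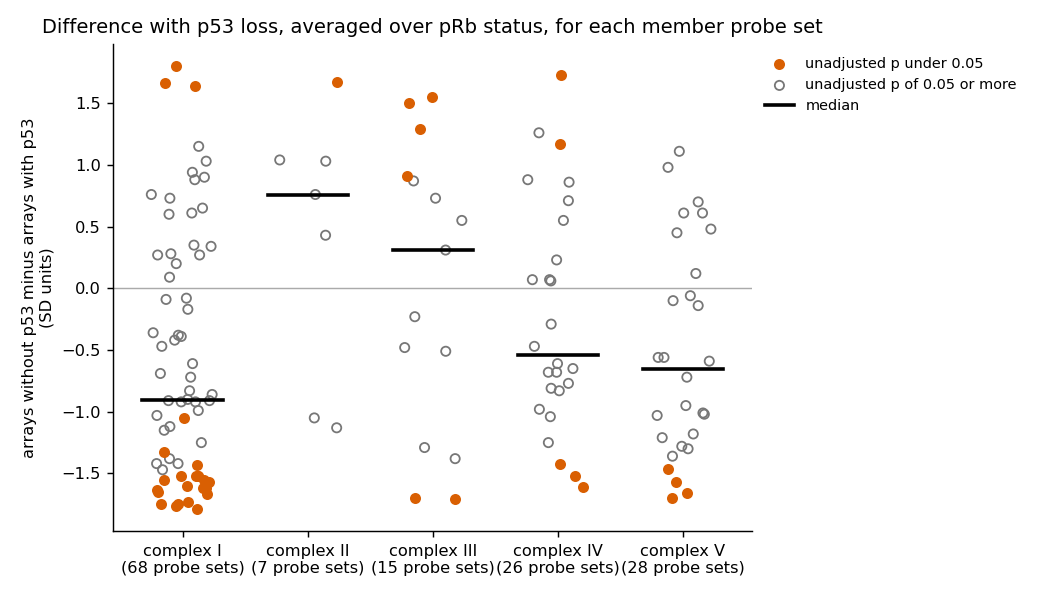
Difference of each subunit probe set (1 point each, SD units) between the 4 arrays without p53 and the 4 with p53, averaged over pRb status, by complex; filled orange points have an unadjusted p under 0.05 and black lines are medians. Complex I lies lowest, with a median of −0.9 and 21 of its 68 probe sets lower, and complex II highest, with a median of 0.76 over 7 probe sets, which turns to −0.31 with 1 probe set per gene.

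A stricter description, also added after the values were seen, counts a probe set only when all 4 of its arrays without p53 lie on 1 side of all 4 arrays with p53. This held for 26 subunit probe sets on the lower side (18.1% of 144), where 8.14% of all probe sets did so, and for 7 on the higher side (4.86%), where 5.89% did. Of the 26, 18 belonged to complex I, from 14 genes, which is 26.5% of its probe sets. The others were 3 of complex III, 1 of complex IV and 4 of complex V. In 8 genes every probe set with a single annotated symbol lay lower: Ndufa2, Ndufa3, Ndufa5, Ndufa6, Ndufa13, Ndufb10, Uqcr11 and Atp5h. Of these, 3 have more than 1 such probe set. The 7 on the higher side were probe sets of Ndufs4, Ndufs5, Ndufb8, Sdhc, Uqcrb, Uqcrc2 and Cox5b.

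Complex I is an L-shaped enzyme with a matrix arm that holds the core redox subunits and a membrane arm that pumps protons. Ndufa2, an accessory subunit of the matrix arm, had the smallest adjusted p of all subunits in the average p53 contrast. Its probe set 1417368_s_at scored 0.94 and 0.61 (control), 0.84 and 1.19 (pRb_null), −0.37 and −0.93 (p53_null) and −1.04 and −1.24 (double_null). Both genotypes with p53 stood above 0 and both without it below. The average difference with p53 loss was −1.79 ± 0.19, with an adjusted p of 0.052 (limma). Ndufa3 1452790_x_at scored 0.45 and 0.87 (control), 1.28 and 0.92 (pRb_null), −0.77 and −1.46 (p53_null) and −0.53 and −0.75 (double_null). The groups with and without p53 did not overlap, and the average difference was −1.76 ± 0.23 (limma, adjusted p = 0.065). Its other probe set followed it over the 8 arrays with r = 0.98 and gave −1.65 ± 0.3.

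Ndufa5, an accessory subunit of the matrix arm, was the subunit most like the rest of complex I: 1417285_a_at correlated with the median of the other complex I probe sets at r = 0.94 over the 8 arrays. Its second probe set, 1417286_at, scored 0.3 and 0.78 (control), 1.55 and 0.83 (pRb_null), −0.58 and −0.86 (p53_null) and −0.78 and −1.24 (double_null). Both probe sets separated the arrays by p53, with average differences of −1.75 ± 0.26 and −1.73 ± 0.25 (limma, adjusted p = 0.077 for each). Among the core subunits, Ndufv1, which binds NADH and FMN, scored 1.18 and 1.4 (control), 0.01 and 0.45 (pRb_null), −0.61 and −0.08 (p53_null) and −0.81 and −1.55 (double_null) on 1415966_a_at. On this probe set pRb_null lay between control and the genotypes without p53. The differences from control were −1.06 ± 0.36 in pRb_null, −1.64 ± 0.36 in p53_null and −2.47 ± 0.36 in double_null skin, the last with an adjusted p of 0.091 (limma). The other Ndufv1 probe sets had pRb_null above control, by 1.46 ± 0.69 (1415967_at) and 0.34 ± 0.66 (1456015_x_at). For Ndufv2, all 3 probe sets were lower with p53 loss, by −1.57 ± 0.45, −1.33 ± 0.39 and −1.55 ± 0.42. The remaining core subunits were less uniform. Ndufs7 gave −1.62 ± 0.34 on 1451312_at and −1.38 ± 0.53 on 1424313_a_at. The 6 probe sets of Ndufs8 ran from −1.55 ± 0.5 to 0.2 ± 0.84, with 1 above 0. Ndufs3 and Ndufs1, with 1 probe set each, were above 0, at 0.9 ± 0.54 and 0.27 ± 0.91.

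On the opposite side were probe sets of 3 complex I genes. Ndufs4, an accessory subunit next to the NADH-oxidizing core whose loss causes Leigh syndrome, was the clearest. Its probe set 1418117_at scored −0.77 and −0.93 (control), −0.91 and −1.0 (pRb_null), 1.2 and 0.37 (p53_null) and 0.78 and 1.24 (double_null). All arrays without p53 stood above all arrays with it, and the average difference was 1.8 ± 0.24 (limma, adjusted p = 0.069). It was also the probe set least like the rest of the complex (r = −0.93), and the other Ndufs4 probe sets had differences below 0. Ndufs5 and Ndufb8, accessory subunits of the membrane arm, were higher by 1.64 ± 0.37 and 1.66 ± 0.33. Ndufa4 is counted in complex I by its symbol, although it is now placed in complex IV. It scored −1.22 and −1.57 in p53_null arrays, against −0.34 and 0.49 in control, 1.39 and 0.55 in pRb_null and 0.67 and 0.03 in double_null arrays, so that both p53_null arrays lay below the other 6.

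**Figure D3:**
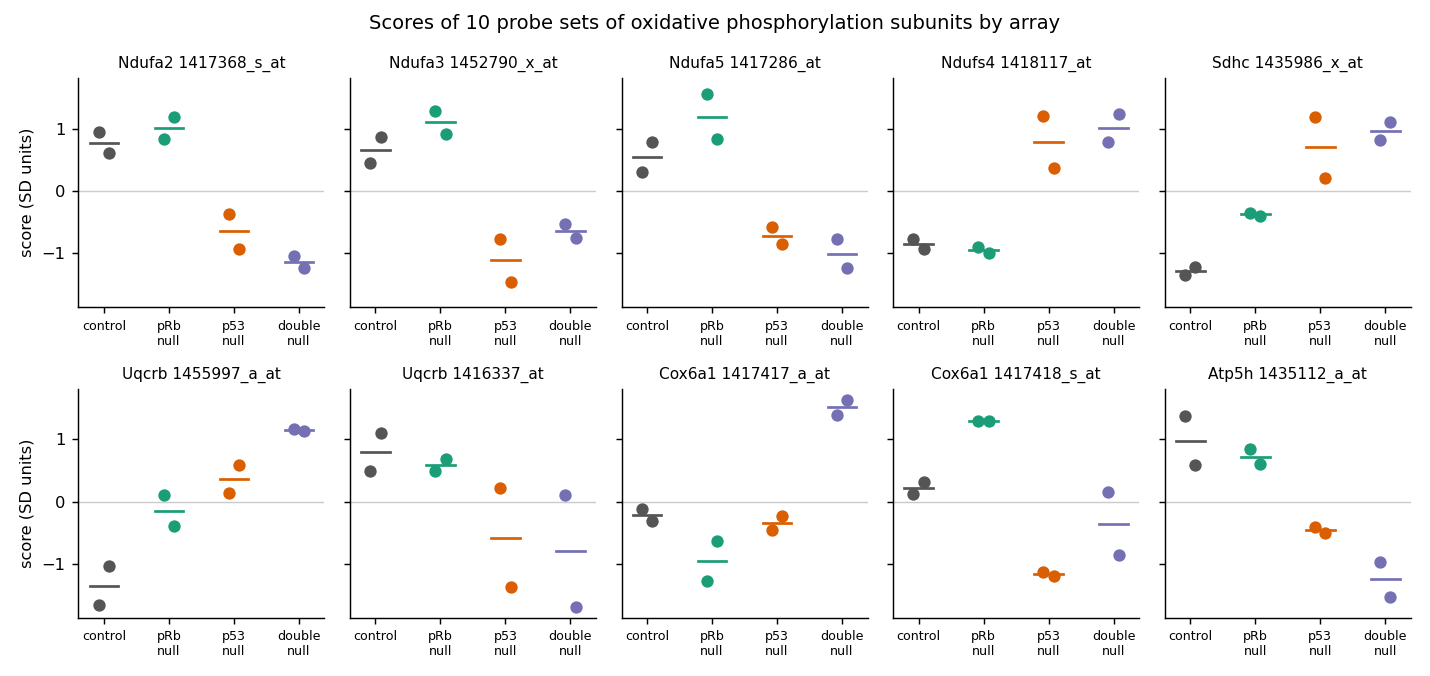
Scores (SD units) of 10 subunit probe sets by genotype, with 1 point for each array and a line at the mean of both. Ndufa2, Ndufa3, Ndufa5 and Atp5h are above 0 in all 4 arrays with p53 and below 0 in all 4 without; Ndufs4 and Sdhc show the opposite order, and the 2 probe sets of Uqcrb and of Cox6a1 disagree with each other.

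Promoter sequence was looked at because several of these genes had every probe set on the lower side without p53. RefSeq windows on GRCm38.p6 (250 bases before to 50 after the start) were at hand for 62 of the 75 genes. Each window was searched on both strands for GCGCATGC (NRF-1 core), CCGGAAG (ETS core), AAGATGGC (YY1 core), AAGGTCA (core of the estrogen-related receptors) and CCAAT, and a motif may overlap itself or another. NRF-1 letters were in 9 of the 62 windows (14.5%, against 3.05% of all 27025 genes), ETS letters in 16 (25.8% against 9.93%), YY1 letters in 9 (14.5% against 3.19%), and estrogen-related receptor letters in 7 (11.3% against 5.38%). CCAAT was in 24 (38.7% against 41.1%). Among the 17 genes with a window and a probe set on the lower side the shares were 17.6%, 29.4%, 17.6%, 5.88% and 23.5%. These matches are a description of letters in a window and were not tested. The 150 bases before the start were at hand for 7 of the 8 genes with every probe set lower. Of these, 3 hold a match (Ndufa6 of complex I, Uqcr11 of complex III and Atp5h of complex V) and 4 hold none (Ndufa3, Ndufa5, Ndufa13 and Ndufb10 of complex I). The 3 with a match are shown, and of those without one Ndufa3, which had the smallest adjusted p among the subunits in p53_null against control skin. All are written 5′ to 3′ on the gene's strand, with motif letters in capitals.
Ndufa3, chr7:3617223-3617372, plus strand: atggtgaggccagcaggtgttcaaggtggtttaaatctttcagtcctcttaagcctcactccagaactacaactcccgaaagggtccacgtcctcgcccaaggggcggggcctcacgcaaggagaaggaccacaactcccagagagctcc
Ndufa6, chr15:82354292-82354441, minus strand: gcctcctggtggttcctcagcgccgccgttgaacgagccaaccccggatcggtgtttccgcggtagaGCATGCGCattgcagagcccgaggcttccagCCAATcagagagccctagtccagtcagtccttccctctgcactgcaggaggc
Uqcr11, chr10:80406822-80406971, minus strand: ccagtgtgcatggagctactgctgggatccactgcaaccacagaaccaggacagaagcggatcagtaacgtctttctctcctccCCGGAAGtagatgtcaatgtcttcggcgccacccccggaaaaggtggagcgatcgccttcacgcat
Atp5h, chr11:115419920-115420069, minus strand: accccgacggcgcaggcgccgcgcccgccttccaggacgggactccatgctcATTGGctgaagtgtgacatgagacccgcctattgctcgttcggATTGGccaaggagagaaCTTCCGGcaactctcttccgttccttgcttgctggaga
The stretch of Ndufa6 holds an NRF-1 and a CCAAT match, that of Uqcr11 an ETS match and that of Atp5h an ETS and 2 CCAAT matches. The stretch of Ndufa3 holds none of these letters.

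Complex II, succinate dehydrogenase, is the smallest group, with 7 probe sets for all 4 of its subunits, and it ran against complex I. Its array median was −0.64 and −0.58 (control), 0.41 and −0.22 (pRb_null), 0.58 and −0.45 (p53_null) and 0.82 and 0.02 (double_null). Control lay lowest, while the other genotypes overlapped. The array's own control probe sets also had their lowest medians in control skin, −0.69 and −0.51. The median difference with p53 loss was 0.76, but −0.31 with 1 probe set per gene. Sdhc, which anchors the enzyme in the membrane, scored −1.36 and −1.22 (control), −0.35 and −0.4 (pRb_null), 1.19 and 0.21 (p53_null) and 0.82 and 1.11 (double_null) on 1435986_x_at. The difference from control was 1.99 ± 0.37 in p53_null and 2.26 ± 0.37 in double_null skin, and the average with p53 loss was 1.67 ± 0.26 (limma, adjusted p = 0.08). Sdhd, the other membrane anchor, scored −1.37 and −1.38 in control arrays on 1428235_at and between −0.2 and 1.24 in the other 6. That probe set was the one most like the other complex II probe sets (r = 0.88), and Sdhb, the iron-sulfur subunit, was the least (r = −0.27). Sdha, the flavoprotein, had 1 probe set on each side of 0.

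Complex III, cytochrome bc1, was high in double_null skin for several subunits and disagreed within genes. Its median difference with p53 loss was 0.31, 0.7 without the first pRb_null array and −0.23 without probe sets suffixed _x_at or _s_at. Uqcr10 1434340_at, a small subunit, scored 1.01 and 2.04 in double_null arrays and between −0.79 and −0.17 in the other 6. Uqcrc1, a core subunit facing the matrix, scored 1.66 and 1.28 in double_null arrays and between −1.4 and 0.03 in the others. In double_null against control skin these differed by 2.16 ± 0.4 and 1.83 ± 0.39 (limma, adjusted p = 0.12 and 0.13). The other Uqcr10 probe sets split in that comparison, with 1.8 ± 0.64 for 1434341_x_at and −0.64 ± 0.76 for 1424364_a_at. For Uqcrb, 1455997_a_at scored −1.67 and −1.03 (control), 0.1 and −0.4 (pRb_null), 0.13 and 0.58 (p53_null) and 1.16 and 1.13 (double_null). The second Uqcrb probe set, 1416337_at, scored 0.49 and 1.1, 0.49 and 0.68, 0.21 and −1.38, and 0.11 and −1.7 in the same order of genotypes. The first was higher and the second lower in every array without p53, and their r was −0.68. Uqcrc2, the second core subunit, did the same: 1428631_a_at gave 1.55 ± 0.35 and 1435757_a_at −1.71 ± 0.36. Uqcr11, with 1 probe set, was lower by −1.7 ± 0.38. The hinge protein Uqcrh was the least like its complex (r = −0.79), with 0.68 and 1.68 in control arrays and −0.56 and −1.15 in double_null arrays.

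Complex IV, cytochrome c oxidase, showed no common direction in double_null skin, where its array medians of 0.01 and 0.27 lay within the range of the arrays with p53, from −0.16 to 0.55. Both p53_null arrays lay lowest, at −0.54 and −0.24. Its median average difference of −0.54 was −0.24 without the second control array, −0.2 without the first p53_null array and −0.18 without the first double_null array, and it turned to 0.15 with 1 probe set per gene. Cox7a2, the isoform found in most tissues, was closest to this pattern: 1416971_at scored between 0.76 and 0.91 in the 4 arrays with p53, −1.76 and −0.8 in p53_null and −0.8 and 0.14 in double_null arrays, with an average difference of −1.61 ± 0.34 (limma, adjusted p = 0.11). The other Cox7a2 probe set, 1416970_a_at, was the one most like the rest of the complex (r = 0.86), and Cox6c 1434491_a_at the least (r = −0.54). Cox6a1, the isoform of most tissues, gave opposite answers. Its 1417417_a_at scored 1.39 and 1.64 in double_null arrays and between −1.27 and −0.12 in the other 6, which set double_null apart. Its 1417418_s_at scored 0.12 and 0.32 (control), 1.3 and 1.3 (pRb_null), −1.14 and −1.19 (p53_null) and 0.15 and −0.86 (double_null). The average differences with p53 loss were 1.17 ± 0.19 and −1.52 ± 0.26. Cox5b 1435613_x_at was higher by 1.73 ± 0.28 (limma, adjusted p = 0.083), while 4 of its 6 probe sets were below 0.

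The tissue isoforms of complex IV did not share a pattern. Cox6a2, the form of striated muscle, scored −0.89 and −0.51 (control), 1.96 and 0.02 (pRb_null), −1.12 and −0.26 (p53_null) and −0.08 and 0.87 (double_null), and differed by −0.29 ± 0.59 with p53 loss. Both pRb_null arrays stood above both control arrays. Cox4i1, the common form of subunit 4, gave 0.86 ± 0.66, and Cox4i2, its form in lung and under low oxygen, 0.07 ± 0.93. Cox6b1 gave 0.88 ± 0.43 and −1.42 ± 0.43 on its probe sets, and the testis form Cox6b2 −0.98 ± 0.75. Cox7a2l, a factor that joins complexes III and IV into supercomplexes, had 3 probe sets at −0.81 ± 0.66, −1.25 ± 0.48 and −0.68 ± 0.74.

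Complex V has an F1 head that makes ATP, a c ring that turns in the membrane and a peripheral stalk that holds the head still. Over the 7 probe sets of the stalk the array median was 0.59 and 0.68 (control), 0.51 and 0.6 (pRb_null), −0.41 and 0.06 (p53_null) and −0.55 and −1.26 (double_null). These medians separated the arrays by p53, with a median difference of −1.18. Only 2 of the 7 were lower at an unadjusted p under 0.05 (limma), both of Atp5h, and 0 were higher. Atp5j gave −0.06 ± 0.79 and Atp5o 1416278_a_at 0.45 ± 0.67. The array medians of 8 probe sets for accessory membrane subunits ran from 0.2 to 0.35 with p53 and from −0.69 to 0.15 without it. This gap was small beside their SD of 0.3 within genotypes. The closest arrays, the first of pRb_null and of double_null, stood at 0.23 and −0.16 over all probe sets. The 9 probe sets of the F1 head overlapped between the arrays with p53 (−0.41 to 0.45) and without it (−0.37 to 0.18), and 0 of them had an unadjusted p under 0.05. Atp5h, subunit d of the stalk, scored 1.38 and 0.58 (control), 0.84 and 0.6 (pRb_null), −0.41 and −0.5 (p53_null) and −0.97 and −1.53 (double_null) on 1435112_a_at. Its second probe set, 1423676_at, scored 0.59 and 1.08, 0.51 and 1.14, −0.18 and −0.58, and −0.9 and −1.66 in the same order. Double_null was lowest on both, and neither probe set overlapped between arrays with and without p53. The average differences were −1.7 ± 0.25 (limma, adjusted p = 0.077) and −1.66 ± 0.29 (0.094), and 1435112_a_at was the most typical probe set of its complex by correlation with the others. The 3 genes for the c ring subunit, which encode the same mature protein, gave −1.46 ± 0.46 for Atp5g1, −1.28 ± 0.53 and −0.1 ± 0.52 for Atp5g2 and 0.98 ± 0.67 for Atp5g3. Atp5k, a small membrane subunit, had 1434053_x_at at −1.57 ± 0.34 and 1422525_at at 1.11 ± 0.51, the latter least like its complex (r = −0.78).

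Probe sets of 1 gene often disagreed. Of the 75 genes, 32 have 1 probe set and 43 have more. Over the 112 pairs of probe sets for the same gene, the median r across the 8 arrays was 0.44, and 14 genes had all pairs above 0.5. In 18 genes at least 1 pair was below 0: Atp5a1, Atp5k, Atp5pb, Cox5a, Cox5b, Cox6a1, Cox6b1, Ndufa7, Ndufab1, Ndufb6, Ndufb9, Ndufc1, Ndufc2, Ndufs4, Ndufv1, Uqcrb, Uqcrc2 and Uqcrq. For 20 genes the probe sets fell on both sides of 0 in the average p53 difference. Counted by gene, with the mean of its probe sets, 16 of 75 genes were lower and 4 higher with p53 loss at an unadjusted p under 0.05, where 12% and 9.04% of all 12394 genes were. In that setting Ndufa2 (−1.79 ± 0.19, adjusted p = 0.048) and Ndufv2 (−1.48 ± 0.15, adjusted p = 0.044) passed limma's test, where 1.57% of all genes were called. Of the 26 separated lower probe sets, 6 carry a suffix (_x_at or _s_at) that marks possible matching to other transcripts. Arrays of the same genotype also agreed little over the subunits, with r of 0.18 in control, −0.01 in pRb_null, 0.09 in p53_null and 0.29 in double_null skin. Over all probe sets these r were 0.13, 0.12, 0.34 and 0.19 in the same order.

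**Figure D4:**
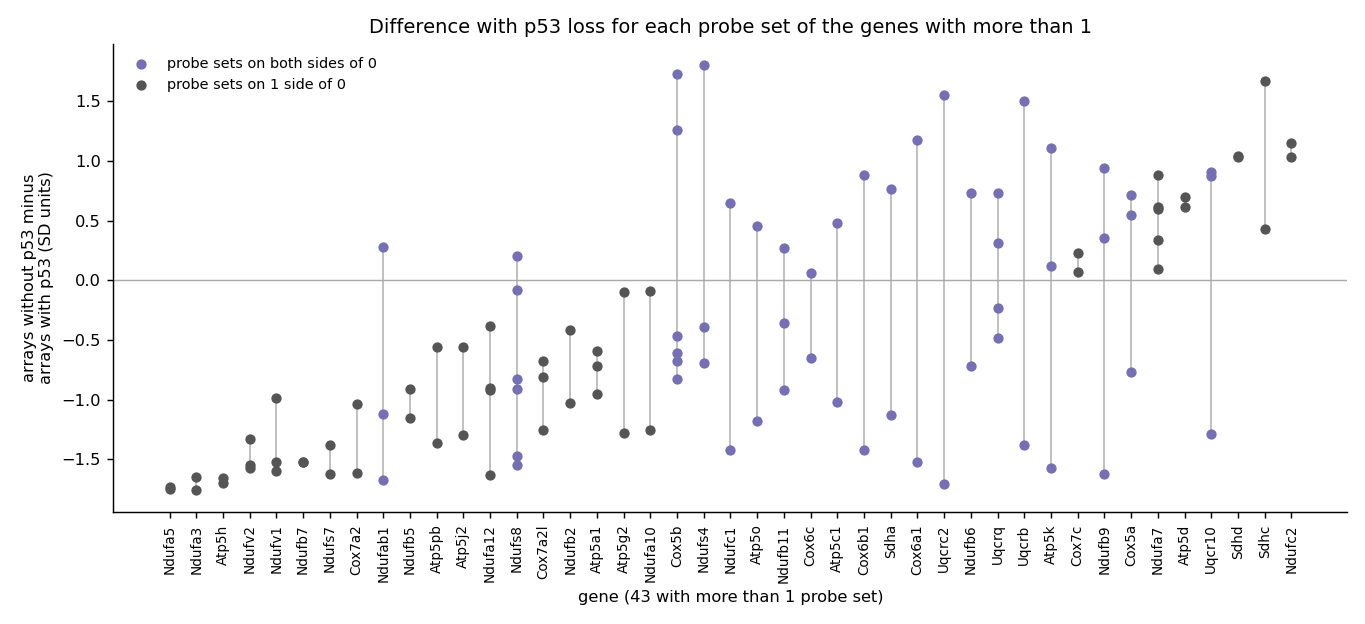
Average difference with p53 loss (SD units) for each probe set of the 43 subunit genes that have more than 1, with points of a gene joined by a line and genes ordered along the axis by their median. In 20 genes, drawn in purple, the points lie on both sides of 0, as for Uqcrb at 1.5 and −1.38; Ndufa5, Ndufa3 and Atp5h have points close together near −1.7.

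Other genes of the pathway did not all go with the subunits. The counts in the average p53 contrast are to be read beside the 12.4% of all probe sets that were lower and the 9.71% that were higher at an unadjusted p under 0.05. In it, 48 probe sets of assembly factors had a median of 0.11, with 5 lower and 8 higher, and Coa5, which acts in complex IV assembly, was higher by 1.76 ± 0.14 (limma, adjusted p = 0.034). Sco2 scored 0.08 and 0.69 (control), 0.58 and 1.45 (pRb_null), −1.89 and 0.01 (p53_null) and −0.65 and −0.27 (double_null), lower in all 4 arrays without p53, with a difference of −1.4 ± 0.55 and an adjusted p of 0.26 (limma). Tricarboxylic acid cycle genes had a median of −0.25 over 28 probe sets (4 lower, 1 higher), with Mdh2 at −1.76 ± 0.29 and Idh3g at 1.06 ± 0.24. Regulators of mitochondrial biogenesis stood at −0.24 over 38 (4 lower, 5 higher), with Polg, the mitochondrial DNA polymerase, at −1.78 ± 0.21. Mitochondrial ribosomal proteins stood at −0.12 over 127 (15 lower, 14 higher), among them Mrpl39, which was called (−1.8 ± 0.17, adjusted p = 0.045, limma). Glycolysis genes had a median of −0.44 over 40 (9 lower, 4 higher) and cytosolic ribosomal proteins −0.77 over 101 (22 lower, 5 higher). A further 19 probe sets of other electron transport genes, outside the naming rule, stood at 0.29 (3 lower, 1 higher), and Etfdh, which feeds electrons from fatty acid oxidation to ubiquinone, was higher by 1.63 ± 0.15 (limma, adjusted p = 0.041). The calls of Coa5, Mrpl39 and Etfdh were each lost whichever array was left out, with adjusted p from 0.09 to 0.19 (limma).

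The array medians of hair follicle, erythroid, mast cell and endothelial markers divided the arrays by p53 status without overlap, the first 2 lower and the last 2 higher without p53. All 20 probe sets of hair follicle keratins and regulators were lower with p53 loss at an unadjusted p under 0.05, where 12.4% of all probe sets were, and 16 were called. The number called was 1 or 2 whichever array was left out, and 0 with quantile normalization, the moderated test or the replicate block, while 19 or 20 were lower at an unadjusted p under 0.05 in each of these. Their array medians were 1.07 and 1.14 (control), 0.6 and 0.6 (pRb_null), −0.42 and −0.34 (p53_null) and −1.44 and −1.1 (double_null). Skeletal muscle, a tissue rich in mitochondria, had a median of −0.82 over 48 probe sets (11 lower and 8 higher, beside 12.4% and 9.71% of all probe sets), with array medians highest in pRb_null skin at 0.64 and 1.13. White adipocyte markers were at −1.19 and −1.24 in p53_null arrays and at 0.97 and 0.67 in double_null arrays, and mast cell markers at 1.1 and 1.02 in p53_null, 0.43 and 0.25 in double_null and −0.74 to −0.48 in the arrays with p53. Brown adipocyte markers lay between −0.35 and 0.44, while Ucp1, the uncoupling protein of brown fat, was higher by 1.79 ± 0.06 (limma, adjusted p = 0.018), a call that held when either double_null array was left out and was lost when any of the other 6 was. Its adjusted p then ran from 0.031 to 0.13 (limma). The median differences of the remaining lists were −0.24 for basal and 0.45 for suprabasal keratinocytes, 0.58 for fibroblasts, 0.71 for endothelium, 0.68 for macrophages, −1.01 for erythroid cells and −1.02 for melanocytes. The array's 64 control probe sets had a median difference of 0.5, with 4 lower and 10 higher. Their array medians were −0.69 and −0.51 in control skin and −0.09 to 0.45 in the other 6 arrays. Against control skin, 18 were higher in pRb_null, 18 in p53_null and 16 in double_null skin (0, 2 and 2 lower). Of all probe sets 6.44%, 7.38% and 8.77% were higher. Whether a technical offset of the control-skin arrays enters the comparisons with control was not tested. Since scores hold no level, whether a defining marker is near 0 could not be read. The part of these markers in the subunit scores was not tested.

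**Figure D5:**
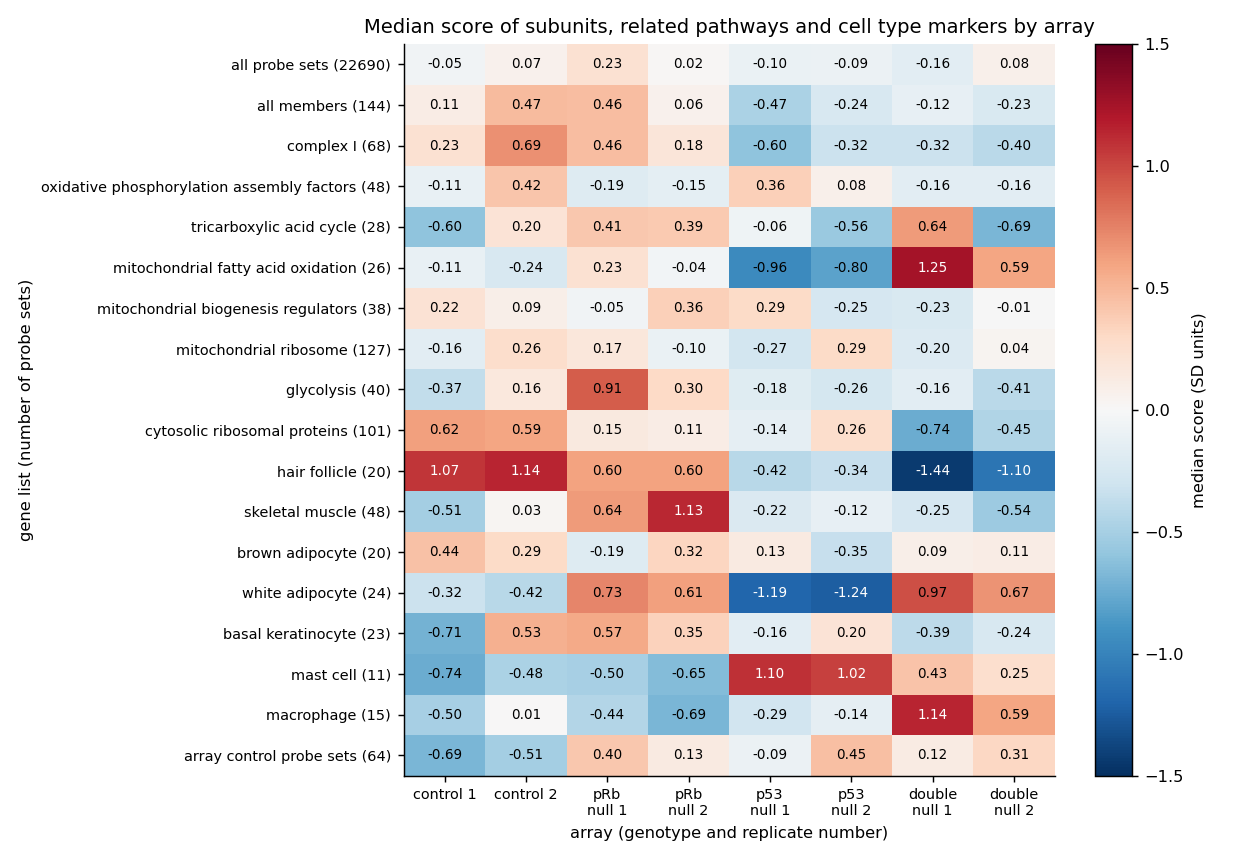
Median score (SD units, colour and printed value) of each gene list in each of the 8 arrays, with the number of probe sets in brackets. The rows for all subunits and for complex I are above 0 in the 4 arrays with p53 and below 0 in the 4 without; the hair follicle row has the same split with larger values, from 1.14 in control to −1.44 in double_null skin.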

How the data were processed

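The deposited table holds 1 score per probe set and array; that it is standardized (mean 0, SD 1 over 8 arrays, all 22690 probe sets, within 1e-06) was tested on the file. RMA is the only tool named, with no version, per the submitters' processing notes; whether logarithms came first is not given. Gene symbols came from the platform annotation; all 75 member genes matched the RefSeq table of GRCm38.p6. Another 8 probe sets of these families carry several symbols and were left out.

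Differences were fitted with limma 3.58.1 (R 4.3.3): 4 group means, all 8 arrays, 4 residual degrees of freedom, ordinary two-sided test without moderation, Benjamini-Hochberg over all 22690 probe sets, called at an adjusted p under 0.05. Standardized rows tie the variances together (prior degrees of freedom 39.6), so limma's moderated test is an alternative. It was checked on simulated data only that the fit gives the right direction for large known changes in double_null arrays. Lists are described by counts at an unadjusted p under 0.05 beside all probe sets.

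The members and lists were chosen with earlier results of these data known. The averaged contrasts and the 4 against 4 separation were added after the values were seen. Members named are the 2 with the smallest p per complex and comparison with control, the tissue isoforms, the genes whose probe sets correlate below 0, and the most and least typical of each complex; others, such as those that separated, were named after their values were seen. Genes of other lists are at most 2 per list by smallest p, plus Sco2, Ucp1 and Rb1. Alternatives were the moderated test, quantile normalization, array medians set to 0, a replicate block, only the groups compared, 1 probe set per gene, averaging the probe sets of each gene, members without _x_at and _s_at suffixes and leaving out each array. Python 3.11.15 with pandas 2.3.3 and, for plots, matplotlib 3.10.9 did the rest. The gene deleted in the p53-null genotypes is not reported here.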

Additional observations from a re-analysis of the deposited data

Results flagged for a closer look

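In 3 flagged subunit probe sets, both arrays of a genotype moved one way in 1 background and both the opposite way in the other. Ndufa7 1455749_x_at had a p53 effect of −1.52 with pRb and 1.7 without it, and a pRb effect of −1.94 with p53 and 1.29 without it, which differ by 3.23 in each case. Cox6a1 1417417_a_at had a pRb effect of −0.73 with p53 and 1.86 without it, a gap of 2.59. Atp5k 1422525_at had −1.03 and 1.17, a gap of 2.2. These gaps equal the interaction in limma, with adjusted p of 0.39, 0.26 and 0.56, so none passed. The other Ndufa7 probe sets gave interactions of 2.72 ± 1.07, 1.93 ± 1.21, 1.85 ± 1.34 and −0.11 ± 1.65. The other probe sets of Cox6a1 and Atp5k gave −0.27 ± 0.51 for Cox6a1, and 0.28 ± 0.68 and 1.75 ± 1.6 for Atp5k. Some subunit probe sets that were not flagged also reversed in both arrays. Among them, Cox7c 1459884_at had a pRb effect of −1.75 with p53 and 1.46 without it.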

How the results depend on the processing

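The number of called members stayed at 0 in 139 recomputed cases; for average p53 loss, 1 probe set per gene gave 1 (Ndufa2) and averaging each gene's probe sets gave 2, both with fewer tests, where 1.57% of all genes were called in each. Both settings lower counts by construction, from 144 probe sets to 75 genes. The moderated test, the replicate block and the fit of only the groups compared called no probe set over the whole array. For average p53 loss, array medians at 0 gave 203 calls over the array in place of 285; Coa5 (adjusted p = 0.056, limma) and Etfdh (0.051) were then not called. With 1 probe set per gene, pRb_null against control had 1 lower and 0 higher, p53_null 10 and 2, double_null 12 and 8, and average p53 loss 15 lower; with the mean of probe sets, higher counts were 0, 2, 3 and 4, and lower counts 12, 14 and 16 for p53_null, double_null and average p53 loss. Their median differences were 0.08 and −0.23 for double_null against control, a change of sign in the first, −0.19 in both for double_null against pRb_null, and −0.36 and −0.37 for average p53 loss. In pRb_null against control, 5 were lower with the moderated test or quantile normalization, and 1 was higher with quantile normalization, array medians at 0, or without _x_at and _s_at probe sets. In p53_null against control, the fit of only the groups compared gave 10 lower, and leaving out those suffixes 3 higher; in double_null against control the former gave 6 higher. For p53_null against pRb_null the median was −0.34 with quantile normalization or medians at 0. The mean of probe sets turned the sign of pRb_null differences for Ndufv1 (0.25), Cox6a1 (0.17) and Atp5a1 (0.04). The cause was not tested in these cases. Leaving out each array gave 0 to 13 lower and 0 to 7 higher for pRb_null against control; 6 to 21 and 3 to 5 for p53_null, with medians from −0.95 to −0.59; and 10 to 22 and 8 to 13 for double_null, with medians from −0.65 to −0.39. Medians ran from −0.52 to −0.24 for double_null against pRb_null, −0.75 to −0.34 for p53_null against pRb_null and 0.12 to 0.44 for the interaction. For average p53 loss they ran from −0.66 to −0.47, with 21 to 30 lower.

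Same-numbered arrays deviated together little (r from −0.16 to 0.2 over the 6 pairs of genotypes), and they were not treated as pairs in the main fit. Low r cannot settle whether arrays with the same number were handled together, and the labels do not say. The replicate block gave 15 lower in double_null against control, and 0 probe sets called in each comparison. Having 2 arrays per genotype limits the precision.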

Other observations

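The largest interaction among the mitochondrial lists was in fatty acid oxidation, whose 26 probe sets are not subunits. Their array medians were −0.11 and −0.24 (control), 0.23 and −0.04 (pRb_null), −0.96 and −0.8 (p53_null) and 1.25 and 0.59 (double_null). The median interaction was 1.56, and 10 of the 26 passed an unadjusted p under 0.05, each higher, where 4.46% of all probe sets were higher and 6.01% lower, while limma called 0 after adjustment. The muscle and brown fat isoforms Cox7a1 and Cox8b, which the naming rule left out, were likewise high in double_null skin: Cox7a1 scored 1.39 and 1.33 there and Cox8b 1.28 and 1.35, against −1.09 to 0.24 and −1.48 to 0.32 in the other 6 arrays. White adipocyte markers stood at −1.19 and −1.24 in p53_null and 0.97 and 0.67 in double_null skin, and the part of fat in these scores was not tested.

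Of the 8 probe sets left out for several symbols, 1433603_at (Ndufs6 and Ndufs6b) had the smallest p: it scored 0.38 to 1.46 in the arrays with p53 and −1.41 to −0.53 in those without, a difference of −1.69 ± 0.37 with an unadjusted p of 0.011 (limma). Another, 1452641_at (Yjefn3 and Ndufa13), did not separate the arrays, with a difference of 0.23 ± 0.82, unlike the Ndufa13 probe set among the subunits. Cycs and Cs, which encode cytochrome c and citrate synthase, disagreed between their probe sets, with differences from −1.29 ± 0.46 to 0.29 ± 0.89 and from −1.61 ± 0.4 to −0.16 ± 0.39.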
